A study of Homo sapiens with 4 samples.

Results

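The clustered histone genes were examined in the human Philadelphia chromosome-positive leukemia lines SUP-B15 and BV-173. They comprised 42 probe sets for 41 genes, of 22277 probe sets in all, and were taken as the probe sets whose platform annotation names a single gene symbol of the H1-1 to H1-6, H2AC, H2BC, H3C or H4C series. SUP-B15 was assayed after exposure to STI571 (imatinib), an inhibitor of the BCR-ABL1 kinase, at 10 μmol/l for 16 h, and as untreated cells; BV-173 was assayed in the same 2 states. Both lines carry the BCR-ABL1 fusion, in treated and untreated cells alike. Each of the 4 groups was 1 array, so the lines are the only repeat of the treatment. The p-values rest on a spread between the 4 arrays that is pooled over probe sets of like brightness. That spread may be technical, holds any difference between the lines' responses, and is not the spread of a single member. The members were 6 probe sets for linker histone H1, 8 for H2A, 13 for H2B, 7 for H3 and 8 for H4. By the RefSeq annotation of GRCh38.p14, 39 of the 42 lie on chromosome 6 and 2 on chromosome 1; the remaining one, H2BC12L, lies on chromosome 21, outside the clusters.

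H2A, H2B, H3 and H4 form the protein core that DNA wraps around in a nucleosome, and H1 binds the DNA where it enters and leaves. The clustered genes supply most of these proteins during DNA replication: they are switched on in S phase, and their transcripts typically end in a stem-loop in place of a poly(A) tail. Some members are also known to give polyadenylated transcripts outside S phase. The labels cite the array maker's standard protocol, which is known to prime from poly(A) tails, so a histone signal here need not follow the total amount of histone transcript. Members of a family are close copies of each other, and probes of one gene can catch transcripts of another; 8 member probe sets carry the maker's mark _x_at and 4 the mark _s_at for shared probes, and these values are uncertain for the single gene.

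Of the 42 members, 27 (26 genes) reached the median signal of at least 1 array and were tested among 11818 such probe sets. The other 15 had signals of 2.3 to 96.3. Of the 27, 15 reached the median in at least 1 array of both lines and 12 in BV-173 arrays alone. Every change is given on the scale of log2(signal + 24.5), where the change of a dim probe set comes out too small. Precision is limited by the number of arrays: the standard error of a member's change was between 0.25 and 0.83 on that scale. Precursor B cell identity was checked first. All 8 measured B precursor markers were at or above the array median in all 4 arrays, with summed signals between 14533.5 and 93747.7, while 0 of 5 T cell markers reached it in any array and these summed to 109.5 to 198.1. Of 4 measured myeloid markers 2 and of 3 erythroid or megakaryocyte markers 2 reached it in no array, and the sums were 82.3 to 413 and 84.2 to 157. The myeloid marker MPO reached the median in both SUP-B15 arrays (162 in treated and 196.2 in untreated cells). CSF1R reached it in untreated SUP-B15 cells (156.4) and HBB in untreated BV-173 cells (123.3). Of 4 plasma cell markers, 1, XBP1, was at or above the median throughout. PRDM1 reached it in untreated SUP-B15 cells alone (196.4) and TNFRSF17 in treated SUP-B15 cells alone (208.5).

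**Figure D1:**
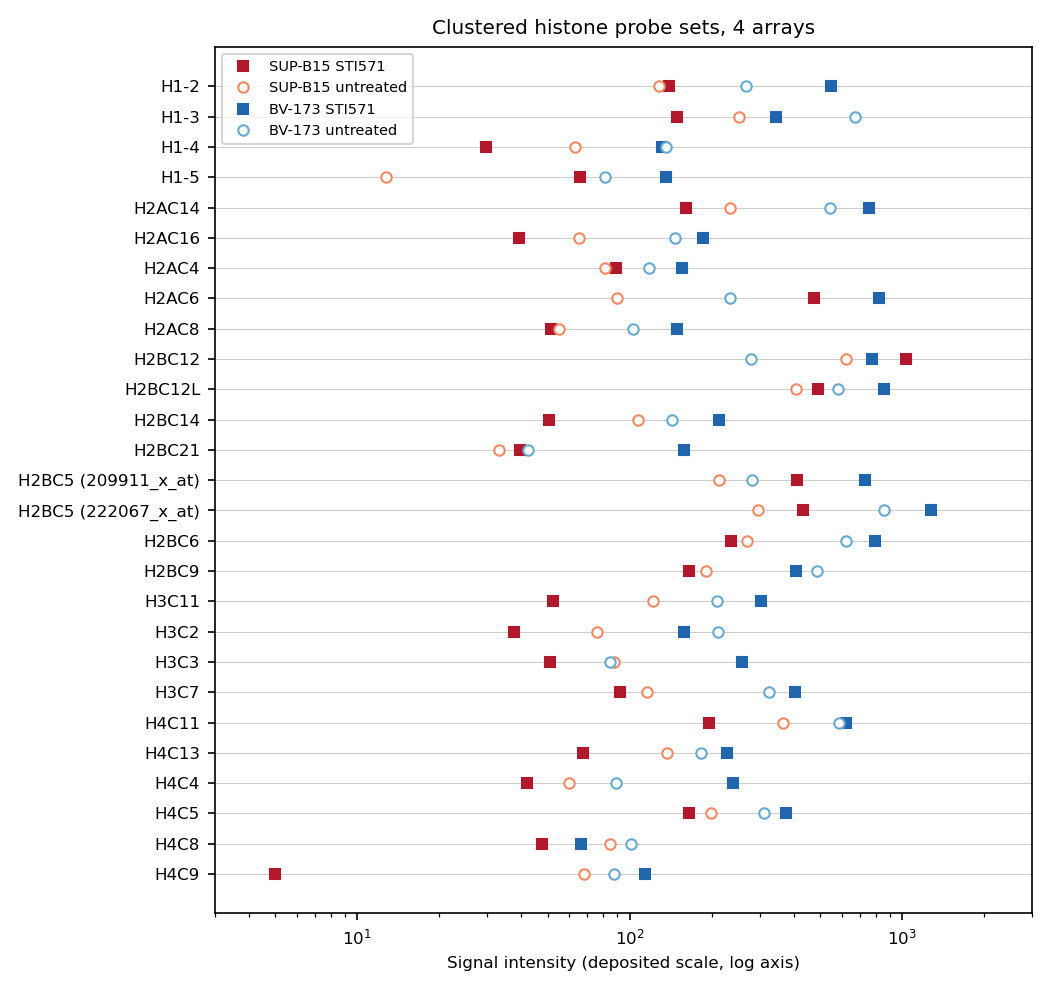
Signal intensity (log axis) of the 27 tested clustered histone probe sets in the 4 arrays, squares for STI571 and circles for untreated cells, red for SUP-B15 and blue for BV-173. Both SUP-B15 points lie left of both BV-173 points for 22 probe sets, and H2BC12 has its highest point in treated SUP-B15 cells, at 1035.

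The first comparison asked which histone genes differed between treated and untreated cells when the lines are averaged. Only H2AC6, H2BC12 and 1 of the 2 probe sets of H2BC5 passed the test among the 27, and all 3 were higher with the inhibitor. H2AC6, which encodes a canonical H2A, changed furthest. Its signal was 476 in treated and 89.5 in untreated SUP-B15 cells, and 825 in treated and 234 in untreated BV-173 cells. Treated cells exceeded untreated cells of both lines without overlap. The change was 4.39-fold in SUP-B15 and 3.28-fold in BV-173, a mean log2 change of 1.93 (SE 0.31, limma adjusted p = 1.72e-07). H2AC6 was also the single member at least 2-fold changed in the same direction in both lines. Its probe set is marked _s_at.

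H2BC12, an H2B gene, had a signal of 1035 in treated and 624 in untreated SUP-B15 cells, and 778 in treated and 280.1 in untreated BV-173 cells. Both treated arrays again lay above both untreated arrays. The mean log2 change was 1.05 (SE 0.25, limma adjusted p = 0.00218), with 1.63-fold in SUP-B15 and 2.63-fold in BV-173. This probe set carries no mark for shared probes.

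H2BC5, a further H2B gene, has 2 probe sets, both marked _x_at. The first in order of identifier gave 412 in treated and 212 in untreated SUP-B15 cells, and 732 in treated and 282 in untreated BV-173 cells. Treated and untreated arrays did not overlap, and the mean log2 change was 1.09 (SE 0.29, limma adjusted p = 0.00947). The second gave 434 in treated and 295 in untreated SUP-B15 cells, and 1279 in treated and 855 in untreated BV-173 cells. It moved in the same direction in both lines by 0.52 and 0.57 on the log2 scale without passing the test (adjusted p = 0.324), so the call rests on 1 of the 2 probe sets. H2BC12L, which was listed for its high mean signal, had 493.5 in treated and 409 in untreated SUP-B15 cells, and 861 in treated and 580.3 in untreated BV-173 cells, a mean log2 change of 0.40 (adjusted p = 0.609).

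The promoters of the called genes are shown as the 200 bases before the annotated start, with those of an H2B and an H3 gene that were not called, H2BC14 and H3C7, both picked after their values were seen. Capitals mark the octamer ATTTGCAT, an element typical of H2B promoters and bound by POU2F1, the CCAAT box and the TATA box (letters TATAAA), each on either strand; in H3C7 TATA matches on both strands overlap. Of the 2 windows the table lists for H2BC12 and for H2BC5, the one with the lower start coordinate is shown. Sequences are from RefSeq (GRCh38.p14), read 5′ to 3′ on the gene's strand: H2AC6 at chr6:26123972-26124171 (+), H2BC12 at chr6:27146856-27147055 (−), H2BC5 at chr6:26157921-26158120 (+), H2BC14 at chr6:27814822-27815021 (+) and H3C7 at chr6:26250636-26250835 (−).
H2AC6: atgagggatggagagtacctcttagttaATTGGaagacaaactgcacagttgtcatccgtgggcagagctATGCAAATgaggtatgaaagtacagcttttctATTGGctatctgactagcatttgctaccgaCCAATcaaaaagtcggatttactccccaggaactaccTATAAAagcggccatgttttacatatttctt
H2BC12: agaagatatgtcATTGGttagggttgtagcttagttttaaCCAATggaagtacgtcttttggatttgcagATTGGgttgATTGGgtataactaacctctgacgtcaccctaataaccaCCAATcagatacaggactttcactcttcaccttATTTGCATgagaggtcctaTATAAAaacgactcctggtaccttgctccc
H2BC5: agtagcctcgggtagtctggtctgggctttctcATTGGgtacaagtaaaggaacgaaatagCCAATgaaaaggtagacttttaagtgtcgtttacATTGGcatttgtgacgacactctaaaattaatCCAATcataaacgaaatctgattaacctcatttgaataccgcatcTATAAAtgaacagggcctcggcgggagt
H2BC14: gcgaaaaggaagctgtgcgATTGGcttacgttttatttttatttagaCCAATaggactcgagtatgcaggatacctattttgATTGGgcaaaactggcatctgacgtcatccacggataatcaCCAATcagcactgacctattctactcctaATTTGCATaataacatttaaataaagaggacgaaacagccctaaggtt
H3C7: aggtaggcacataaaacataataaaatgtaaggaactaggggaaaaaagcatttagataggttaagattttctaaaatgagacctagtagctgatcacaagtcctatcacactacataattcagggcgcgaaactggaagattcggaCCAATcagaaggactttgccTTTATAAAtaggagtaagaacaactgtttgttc

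All 3 called genes hold a TATA box and a CCAAT box in these windows; H2AC6 and H2BC12 hold an octamer and H2BC5 holds none. Of the uncalled genes shown, H2BC14 holds the octamer and CCAAT letters, with a TATA match only further upstream than the bases printed, and H3C7 holds CCAAT and TATA letters and no octamer, so these elements do not separate the called genes from the others shown. A match or its absence is a description of these letters alone. RefSeq windows were found for 38 of the 41 member genes. In the 250 bases before the start, the octamer was found in 14 of the 38 (36.8%), against 2.03% of 27305 genes of the table. It was found in 8 of 11 H2B and 6 of 8 H2A promoters, and in 0 of 6 H1, 0 of 6 H3 and 0 of 7 H4 promoters. The CCAAT box was found in 33 of 38 (86.8%), against 37% of all genes, with 2 of 7 H4 promoters among them, and the TATA letters in 25 of 38 (65.8%), against 13%. H2AC6 and H2BC5 lie close to each other in gene order: a single protein-coding gene, the linker histone gene H1-4, stands between them. H1-4 had a signal of 29.8 in treated and 63.1 in untreated SUP-B15 cells, and 131 in treated and 136.5 in untreated BV-173 cells, and was not called. H2BC12 lies in a separate block, beside the H4 gene H4C9, whose log2 changes were −1.65 in SUP-B15 and 0.30 in BV-173.

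**Figure D2:**
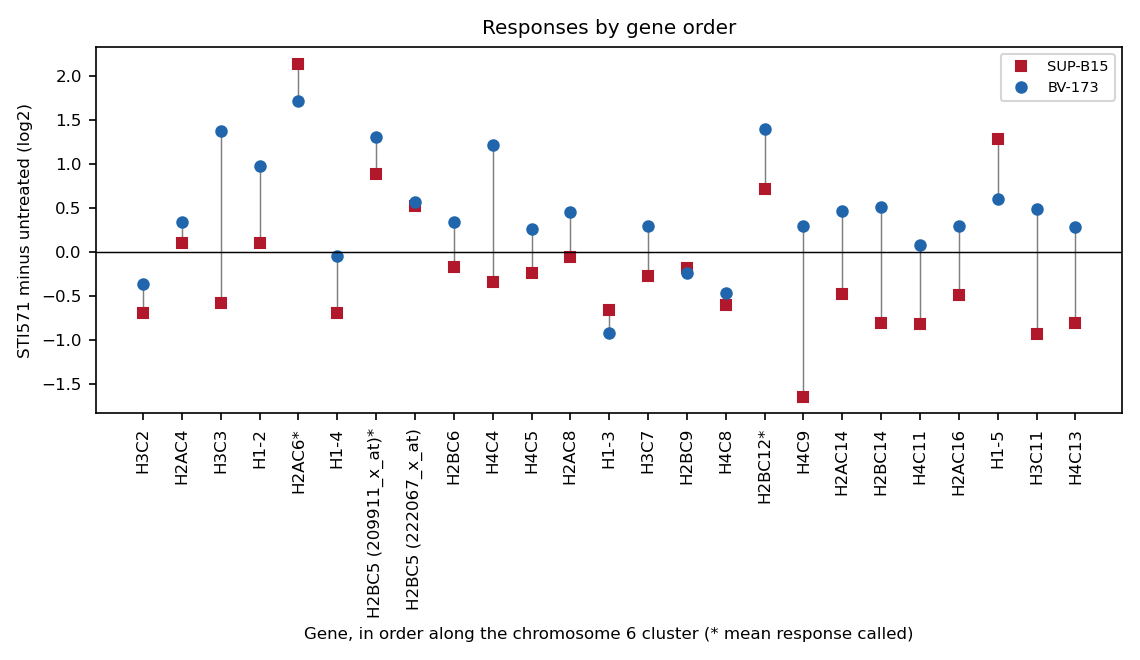
Log2 change with STI571 in SUP-B15 (squares) and BV-173 (circles) for the tested members on chromosome 6, in gene order from left to right; a grey line joins the lines' values and an asterisk marks a called mean response. H2AC6 stands highest in both lines, at 2.14 and 1.72, and H1-4 beside it lies at −0.69 and −0.05.

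The 3 calls are 11.1% of the 27 members tested, against 1.39% of all 11818 probe sets called higher with STI571. Called lower were 0 members, against 1.56% of all probe sets; 5 members had an unadjusted limma p under 0.05. Of these the H1 gene H1-3 was the only one with a negative change, with a signal of 149.5 in treated and 252 in untreated SUP-B15 cells, and 344 in treated and 671.5 in untreated BV-173 cells (mean log2 change −0.79, adjusted p = 0.181). H1-3 therefore had lower signals with the inhibitor in both lines, whereas H1-2, another linker histone gene, had a signal of 139 in treated and 128 in untreated SUP-B15 cells and 548 in treated and 268 in untreated BV-173 cells (0.54, adjusted p = 0.63). The median mean change over the 27 was 0.01, against 0.02 over all probe sets tested. By family the medians were 0.08 for H1, 0.19 for H2A, 0.47 for H2B, −0.10 for H3 and −0.32 for H4. The test takes each probe set's spread from the trend over all probe sets at its brightness. The estimated prior for the spread was infinite, so a probe set's own spread, with 1 residual degree of freedom, had no weight. When the trend or the cell line term was left out, 0 members, and 0 of the 11818 probe sets, were called for STI571.

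The second comparison set SUP-B15 against BV-173 over both treatments. Clustered histone genes were lower in SUP-B15: of the 27 tested, 11 were called lower and 1, H2BC12, higher. These are 40.7% and 3.7% of the members, against 12.8% of all probe sets called lower in SUP-B15 and 13.8% called higher. The difference was negative for 26 of 27 members and for 50.6% of all probe sets, with a median of −1.16, against −0.01 over all probe sets tested. The filter favours a negative difference for the 12 members that passed through BV-173 arrays alone. Of the 15 members at the median in both lines, 10 were called lower and 1 higher, against 14.3% and 13.1% of the 9411 probe sets at the median in both lines, and the medians were −1.21 and −0.02. Of the 11 called lower, 5 are marked _x_at and 2 _s_at. With marked probe sets left out, 4 of 16 members were called lower, against 12.7% of all, and without the intensity trend 2 of 27, against 3.09%. The 2 kept without the trend were H3C7 and the second H2BC5 probe set, so every other member's call between the lines ended there. Over all 42 members, tested or not, the difference was below 0 for 38.

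**Figure D3:**
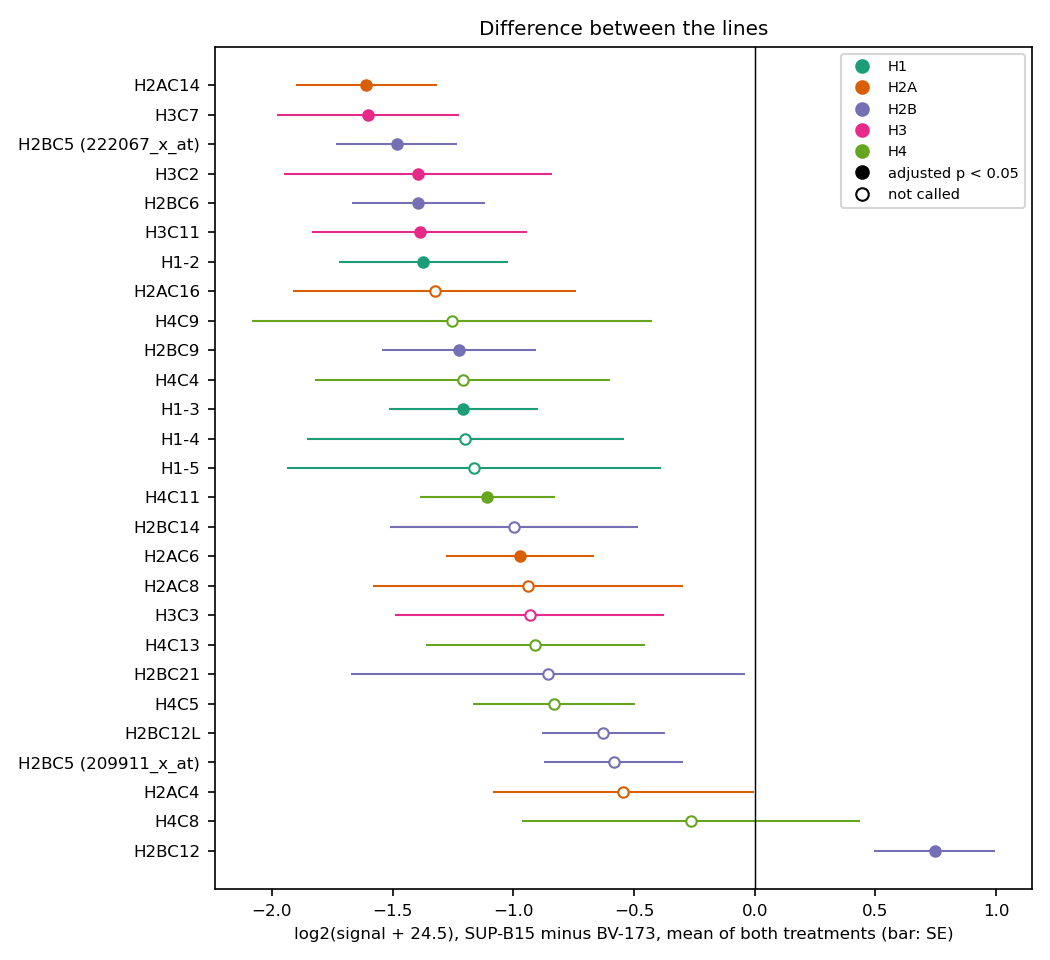
Difference between the lines for each tested member, on the log2(signal + 24.5) scale, SUP-B15 minus BV-173 averaged over treated and untreated arrays, with its standard error from the fit; colours give the histone family and filled points an adjusted p under 0.05. All points but H2BC12 (0.75) lie below 0, and the lowest is H2AC14 at −1.61.

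Among linker histones, H1-2 and H1-3 were lower in SUP-B15, by 1.37 (SE 0.35) and 1.21 (SE 0.31) on the log2 scale. The H1-2 signals given above lay between 128 and 139 in SUP-B15 and between 268 and 548 in BV-173, so the lines did not overlap. Neither did they for H1-3.

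Of the H2A genes, H2AC14, whose probe set is marked _x_at, had the widest difference of all members. Its signal was 160.4 in treated and 234 in untreated SUP-B15 cells, against 759 in treated and 543 in untreated BV-173 cells. That is 3.05-fold higher in BV-173 (log2 −1.61, SE 0.29, limma adjusted p = 6.05e-07). H2AC6, the gene that responded most to STI571, was also called lower in SUP-B15 (−0.97, SE 0.31, adjusted p = 0.00846), though its treated SUP-B15 signal exceeded its untreated BV-173 signal. That call ended when the treatment term or the intensity trend was left out.

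H2B genes divided. H2BC6 had a signal of 236 in treated and 270.1 in untreated SUP-B15 cells, against 792.5 in treated and 624 in untreated BV-173 cells (log2 −1.39, SE 0.28, adjusted p = 6.09e-06). H2BC9 had 165 in treated and 191 in untreated SUP-B15 cells, against 409 in treated and 489 in untreated BV-173 cells (−1.22, SE 0.32). The probe sets of H2BC6 and H2BC9 are both marked _x_at. The second H2BC5 probe set was called lower (−1.48, SE 0.25), while the first, which was called for STI571, was not (−0.58, limma adjusted p = 0.123). H2BC12 was 1.68-fold higher in SUP-B15 (0.75, SE 0.25, adjusted p = 0.0138), with overlapping arrays, since treated BV-173 cells had more signal than untreated SUP-B15 cells. That call ended when arrays were set to a common median, or when the treatment term or the intensity trend was left out. H2BC12L, marked _x_at, was just not called (−0.63, limma adjusted p = 0.0517), though both SUP-B15 signals lay below both BV-173 signals. It was called lower in 5 of the 11 other settings run for it.

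All 4 tested H3 probe sets were lower in SUP-B15 on average and 3 were called. H3C2 and H3C3 passed the filter through BV-173 arrays alone, which favours a negative difference for them. H3C7 had a signal of 91.9 in treated and 116 in untreated SUP-B15 cells, against 406 in treated and 326 in untreated BV-173 cells (−1.60, SE 0.38, adjusted p = 0.000193). H3C11 had 52.3 in treated and 122 in untreated SUP-B15 cells, against 305 in treated and 210.1 in untreated BV-173 cells (−1.39, SE 0.44). The call of H3C11 ended with no filter or no intensity trend. The call of H3C2, whose probe set is marked _s_at (−1.40, limma adjusted p = 0.0457), ended with no filter, a pseudocount of 1, no treatment term or no intensity trend. Of 6 H4 probe sets all had negative differences, but H4C4, H4C8 and H4C9 likewise passed the filter through BV-173 arrays alone. The 1 called was H4C11, at 195 in treated and 364 in untreated SUP-B15 cells, against 621 in treated and 589 in untreated BV-173 cells (−1.11, SE 0.28). The H4C11 probe set is marked _x_at. H4C5 just missed the threshold (−0.83, limma adjusted p = 0.0502).

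Both SUP-B15 signals lay below both BV-173 signals for 22 of the 27 tested members (81.5%), against 29.5% of all probe sets tested, and for 28 of all 42 members (66.7%), against 25.2% of the 19064 probe sets with 1 symbol. Over the 15 at the median in both lines it was 12, against 29.8% of such probe sets. The difference was present in untreated cells and had a larger median in treated ones, which was not tested. In treated cells the median over the 27 was −1.51, with 26 of 27 lower in SUP-B15, 20 of them at least 2-fold (74.1%, against 13% of all probe sets). In untreated cells the median was −0.68, with 25 of 27 lower, 9 of them at least 2-fold (33.3%, against 9.98%). Over the 15 members at the median in both lines the medians were −1.45 in treated and −0.94 in untreated cells; 11 were at least 2-fold lower in treated cells (73.3%, against 9.77% of such probe sets) and 7 in untreated cells (46.7%, against 7.23%). The treated BV-173 array stood apart in 18S ribosomal RNA, a control that measures RNA without a poly(A) tail: the mean signal of its 3 probe sets was 1513 in treated and 1577 in untreated SUP-B15 cells, and 2817 in treated and 1596.5 in untreated BV-173 cells. The part of this in the histone values was not tested.

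The third comparison set the response of SUP-B15 to STI571 against that of BV-173. With 1 array per group it has no test, and the treated BV-173 array with its high 18S signal enters every value. Among the 27 tested members, histone signals were mostly lower with the inhibitor in SUP-B15 and mostly higher in BV-173. Of the 27, 18 were lower in treated SUP-B15 cells (median log2 change −0.27) and 22 were higher in treated BV-173 cells (median 0.45). Over all 11818 probe sets, 5924 were lower in treated SUP-B15 cells and 6287 higher in treated BV-173 cells, and the medians were 0.00 and 0.04. For 13 members (48.1%) the response was negative in SUP-B15 and positive in BV-173, against 23.9% of all probe sets, and for 0 the reverse. A further 9 were higher in both lines and 5 lower in both. Of the 27, 5 (H1-5, H2BC21, H3C3, H4C4 and H4C9) had passed the filter through the treated BV-173 array alone, which favours a higher BV-173 response for them. Over the 15 members at the median in both lines, 7 had the opposite responses (46.7%, against 22.5% of such probe sets), and the medians were −0.19 in SUP-B15 and 0.47 in BV-173. Of these 15, 9 were lower in treated SUP-B15 cells and 13 higher in treated BV-173 cells, against 4671 and 4929 of 9411 probe sets. A 75th percentile filter kept 11 members, with medians of 0.10 in SUP-B15 and 0.55 in BV-173, and 3 had the opposite responses. The negative SUP-B15 median was thus not kept under that filter.

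In SUP-B15, 2 members were at least 2-fold higher (7.41%, against 4.39% of all probe sets) and 1 at least 2-fold lower (3.7%, against 5.34%). The 2 were H2AC6 and the linker gene H1-5, whose signal was 66 in treated and 12.8 in untreated cells, and the other was H4C9, at 5.0 and 67.8. All of these except H2AC6 had at least 1 signal far under the array median. In BV-173, 6 members were at least 2-fold higher (22.2%, against 6.85%) and 0 at least 2-fold lower (against 5.1%). These were H2AC6, H2BC12 and H2BC5, which are the 3 among the 15 members at the median in both lines (against 4.06% of such probe sets), and H2BC21, H3C3 and H4C4, which were tested only because of the array whose rise is counted. H2BC21, an H2B gene of the chromosome 1 cluster, had 39.7 in treated and 33.2 in untreated SUP-B15 cells, and 158 in treated and 42.2 in untreated BV-173 cells, so that 1 array stood above the other 3.

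The response was at least 2-fold lower in SUP-B15 than in BV-173 for 7 members (25.9%, against 10.4%) and at least 2-fold higher for 0 (against 7.6%). Of the 7, H2BC21, H3C3, H4C4 and H4C9 passed the filter through the treated BV-173 array alone; over the 15 members at the median in both lines the count was 2, H3C11 and H4C13 (against 6.47% of such probe sets). H3C3 and H4C9 were furthest apart, by −1.95 and −1.94 on the log2 scale. H3C3 had a signal of 50.8 in treated and 87.8 in untreated SUP-B15 cells, and 258 in treated and 84.6 in untreated BV-173 cells, so the untreated lines were alike. H3 and H4 genes made up 8 of the 13 opposite responses, and all 10 tested H3 and H4 probe sets were lower in treated SUP-B15 cells. Responses were opposite for 75% of tested H3 and 83.3% of tested H4 probe sets, against 23.9% of all. Of the 8, H3C3, H4C4 and H4C9 passed the filter through the treated BV-173 array alone, which favours this pattern. The others, H3C7, H3C11, H4C5, H4C11 and H4C13, were at the median in both lines. With all 10 included, the median changes in SUP-B15 were −0.64 for H3 and −0.71 for H4, and in BV-173 0.39 and 0.27. The H2B median was 0.21 in SUP-B15 and 0.56 in BV-173.

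**Figure D4:**
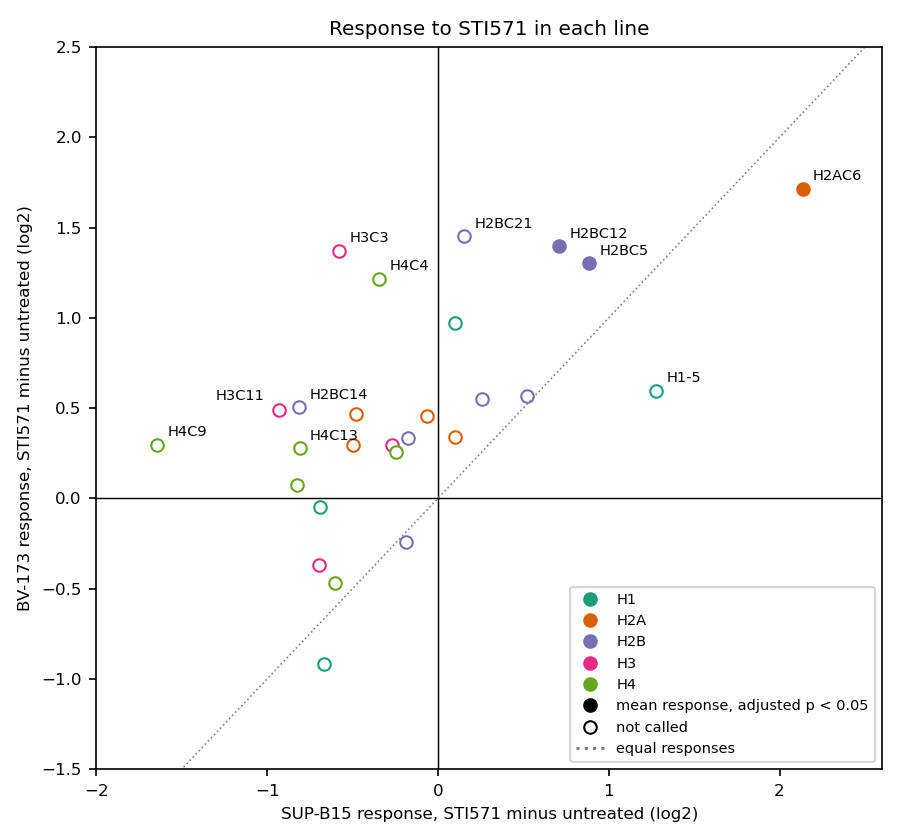
Log2 change with STI571 in SUP-B15 (horizontal axis) against BV-173 (vertical axis) for the 27 tested members, coloured by histone family, with filled points for a mean response at an adjusted p under 0.05 and a dotted line for equal responses. H2AC6, H2BC12 and 1 probe set of H2BC5 lie in the upper right, 13 points lie in the upper left and 0 in the lower right.

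The genes that surround histone supply were then counted in the same fit, with the brightest tested probe set standing for a gene. Of 23 tested genes for histone transcription and 3′ end processing, 0 were called for STI571, and their median change was −0.21, against 0.02 over all 7916 genes. SLBP, which binds the stem-loop of histone transcripts, had a signal of 4430 in treated and 4057 in untreated SUP-B15 cells, and 2526 in treated and 4751 in untreated BV-173 cells. CCNE2, a cyclin of the G1/S transition, had log2 changes of −0.33 in SUP-B15 and −1.06 in BV-173 (adjusted p = 0.142). Between the lines the same list had 4 genes called lower in SUP-B15, which is 17.4% and near the 14.4% of all genes, and 1 called higher, against 14.6%. The one called higher was NPAT, the coactivator of clustered histone genes, with 787 in treated and 835 in untreated SUP-B15 cells, against 222 in treated and 389 in untreated BV-173 cells (1.39, SE 0.26). CSTF2 and CSTF2T, cleavage factor subunits of 3′ end formation, were lower in SUP-B15 (−1.07 and −1.19).

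Of 38 tested S phase genes, 8 were called lower with STI571, against 1.65% of all genes, and 0 higher, against 1.43%, with a median of −0.51, and 31 were lower in both lines, against 26.5%. Between the lines 12 of the 38 were called lower in SUP-B15 (31.6%, against 14.4% of all genes) and 3 higher, with a median of −0.36, so S phase genes moved with the clustered histone genes in this comparison; their part in the histone difference was not tested. With STI571, 0 clustered histone members were called lower, beside the 8 S phase genes. GINS4, a subunit of the replicative helicase, had log2 changes of 0.08 in SUP-B15 and −2.99 in BV-173, and MCM4, a helicase subunit as well, −0.96 and −1.09. Mitosis genes had 0 of 17 called and a median of 0.13. Of 13 inhibitors of the cell cycle 1 was called, CCNG2, a cyclin linked to arrest, with 1.21 in SUP-B15 and 0.64 in BV-173. Of 14 chromatin factors at histone loci 1 was called, the transcription factor MYC, with −1.54 in SUP-B15 and 0.01 in BV-173.

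Histone variants encoded outside the clusters were counted in the line comparison as well. Of 7 tested, 0 were called lower in SUP-B15 and 2 higher, counts that so few genes do not set apart from the 14.4% and 14.6% of all genes, and their median difference was 0.25. MACROH2A1, a large H2A variant, had a signal of 21174 in treated and 23320 in untreated SUP-B15 cells, against 4776 in treated and 3788 in untreated BV-173 cells (2.38, SE 0.21). H1-10, a linker histone made independently of replication and from polyadenylated transcripts, was the one called for STI571: 1825 in treated and 921 in untreated SUP-B15 cells, and 1179 in treated and 552 in untreated BV-173 cells (mean log2 change 1.02, SE 0.23, limma adjusted p = 0.000787). It was thus higher with the inhibitor in both lines, and its probe set is marked _s_at. H2AZ1, H2AX and H3-3A were not called for either comparison. Of 25 tested histone chaperones 1 was called for STI571, ATRX, which deposits H3.3 with DAXX, higher by 1.15 in SUP-B15 and 0.47 in BV-173; NASP, an H1 and H3 chaperone, was not called for STI571 and was higher in SUP-B15 than in BV-173 (1.03, SE 0.20).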

How the data were processed

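The deposited table holds a signal intensity per probe set for 4 arrays on a linear scale, deposited after scaling array by array, as the values show: the 2%-trimmed mean of each column was 500.2. The submitters' processing notes name GCOS 1.3; no source used here names the probe summary method or the scaling target. Per the labels, total RNA was labelled by the maker's standard protocol.

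Of 22277 probe sets, 19064 named 1 gene symbol in the platform annotation, 1043 several and 2108 none, beside 62 controls; 19052 matched RefSeq by Entrez ID and 0 symbols changed. Tested probe sets were those at or above the 50th percentile of 1 array or more. Intensity was taken as log2(signal + 24.5), the 25th percentile of all signals. A limma fit (limma 3.58.1, R 4.3.3) with cell line and treatment as terms and an intensity trend was made on all 4 arrays, with Benjamini-Hochberg adjustment over 11818 probe sets at 0.05; 1 residual degree of freedom remained and the prior was infinite. The line term is the pairing, taken from the labels. Tests were two-sided, and responses of single lines have no test. The fit was also run on simulated data, with a spread taken from a fit to these same arrays and the same change put into both lines. That run could not test whether the spread is right or whether the lines respond alike.

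Full values were given by rule for members called for STI571, 2-fold changed in both lines, called and 4-fold different between lines, or among the 3 highest mean signals; others named, including all called line differences, were chosen after their values were seen. The members and gene lists were chosen with earlier results of these data known. Alternatives were quantile or common-median normalization, pseudocounts of 1 and 98, no filter or a 75th percentile filter, 1 probe set per gene, no marked probe sets, no trend, a robust prior, no other term, and folds of 1.5 and 3; a filter on the mean signal and counts over members at the median in both lines were added after seeing the data.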

Additional observations from a re-analysis of the deposited data

Results flagged for a closer look

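For 13 tested members the response to STI571 was negative in SUP-B15 and positive in BV-173, and this difference between the lines was not tested. The response of SUP-B15 minus that of BV-173, in log2 units, was −1.95 for H3C3, −1.94 for H4C9, −1.56 for H4C4, −1.42 for H3C11, −1.32 for H2BC14, −1.09 for H4C13, −0.95 for H2AC14, −0.90 for H4C11, −0.79 for H2AC16, −0.57 for H3C7, −0.52 for H2AC8, −0.51 for H2BC6 and −0.50 for H4C5. Each value uses the treated BV-173 array, whose 18S signal was 2817 against 1513 to 1596.5 in the other 3, and several of the 13 probe sets can share transcripts, so they are not 13 separate observations.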

How the results depend on the processing

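No setting reversed a called value. The 3 calls for STI571 became 1 without marked probe sets, H2BC12 alone being unmarked, and 0 without the intensity trend or the cell line block, where all 11818 probe sets gave 0. The 11 calls of lower signal in SUP-B15 became 4 without marked probe sets and 2 without the trend; the call of higher signal became 0 with a common median, without the trend and without the treatment term. Called lower were then 0 in H1 (no trend), 0, 0 and 1 in H2A (no trend, no marked probe sets, no treatment term), 1 and 0 in H2B (no trend, no marked probe sets), 0, 1 and 1 in H3 (75th percentile filter, no filter, no trend), and in H4 0 without the trend or marked probe sets and 2 with a common median, quantile normalization, a pseudocount of 98, a robust prior or the mean filter. Members at least 2-fold higher in BV-173 numbered 1 at 3-fold and 3 with the 75th percentile filter, a pseudocount of 98 or no marked probe sets; in SUP-B15, 4 at 1.5-fold and 1 at 3-fold, with the 75th percentile or mean filter, a pseudocount of 98 or no marked probe sets. Members lower in BV-173 numbered 1 at 1.5-fold, with a common median or with no filter; in SUP-B15, 9 at 1.5-fold, 3 with no filter, 6 (pseudocount 1), and 0 under either stricter filter or at pseudocount 98. Members 2-fold apart in response numbered 2 lower (pseudocount 98) and 1 higher (pseudocount 1). Over the 15 members at the median in both lines, the 2-fold counts were 1 higher and 0 lower in SUP-B15, 3 higher in BV-173, and 2 with a lower response in SUP-B15; this restriction was chosen after seeing the data. Among uncalled mean changes, the one of H2AC14 turned to 0.0297 (pseudocount 98), and the one of H3C7 to −0.0218 (common median) and −0.00723 (pseudocount 1). S phase calls became 5 with a common median, 3 without marked probe sets and 0 without the trend or block. The single calls of chaperones, cell cycle inhibitors, chromatin factors and unclustered variants became 0 without the trend or the block; those of chaperones, chromatin factors and variants also without marked probe sets, those of chaperones and inhibitors also with a common median, and that of chromatin factors also with no filter. Where not shown by the setting itself, the cause was not tested. A common median put the median response of all probe sets at 0.10 in SUP-B15 and −0.12 in BV-173, beside member medians of −0.18 and 0.30, and 11 of 27 members were then lower in SUP-B15 and higher in BV-173. Signal over background limits the dim members: 15 of 42 were not tested. No paired analysis was possible because each group has 1 array, beyond the cell line term, which already pairs the arrays.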

Other observations

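A further 20 histone probe sets are annotated to several genes and so belong to no single one. The difference between SUP-B15 and BV-173 was negative for 17 of the 20, against 50.5% of all probe sets with 1 symbol, with a median of −0.61 on the log2(signal + 24.5) scale. Of the 20, 15 reached the median of at least 1 array, some through BV-173 arrays alone, and 9 reached it in both lines, all 9 with a negative difference and a median of −0.92. Both SUP-B15 signals lay below both BV-173 signals for 11 of the 15, against 29.5% of the single-gene probe sets tested. Passing the filter through BV-173 arrays alone favours this outcome. For 8 of the 15 the response to STI571 was negative in SUP-B15 and positive in BV-173, against 23.9% of the single-gene probe sets tested. The median responses in SUP-B15 and BV-173 were −0.26 and 0.44 over the 15, and −0.35 and 0.44 over the 9. These probe sets can catch the same transcripts as the single-gene ones and are no separate evidence.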
